A study of Mus musculus with 12 samples.

Results

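The 10 genes examined here take part in the clearance of dying cells and in the export of the lipid that this clearance brings in: Axl, Mertk, Gas6, Pros1, Mfge8, Stab1, Abca1, Abcg1, Apoe and Lpl. The list was drawn up with earlier results of these data known, and its probe sets were found by gene symbol in the platform annotation of the arrays. They are 10 of 13628 genes tested, and 16 of the 45101 probe sets on the arrays carry their names. Of these probe sets 14 passed a filter on low signal, and each gene was represented by its brightest one. The second probe sets of Axl and Gas6 did not pass: their signals lay between 0.7 and 24.6 and between 5.2 and 64.9.

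RNA came from olfactory epithelium, the sensory lining of the nose, dissected from wild-type male C57BL/6J mice 6 weeks old and measured on 12 one-colour Affymetrix arrays. The 4 groups cross a liposome treatment with an operation, with 3 arrays in each. Lip-C mice received liposomes loaded with clodronate, which kills the phagocytes that take it up, as 50 µl into the nose on each of 3 days and 200 µl into a tail vein on the first and the third day. Lip-O mice received empty liposomes in their place, and mice of either kind had both olfactory bulbs removed (OBX) or a sham operation on the second day and were killed 48 h later. OBX cuts the axons of the olfactory sensory neurons, which then die, and the study asked what macrophages contribute to that loss and to the regrowth after it. All 4 groups therefore carried liposomes, anaesthesia and surgery, and none was left untreated. The titles call the 3 samples of a group biological replicates. The labels do not say whether an array holds 1 mouse or a pool, and p-values here measure the spread between arrays.

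A dying cell is recognised by phosphatidylserine, a lipid that it turns to its outer surface. Phagocytes bind this lipid directly, as Stab1 (stabilin 1) does, or through bridging proteins. Gas6 joins it to the receptor kinases Axl and Mertk, and Pros1 (protein S) joins it to Mertk. Mfge8 (lactadherin) joins it to integrins of the αv family. The swallowed membranes burden the phagocyte with cholesterol, which the transporters Abca1 and Abcg1 pass to lipoproteins such as those built on Apoe (apolipoprotein E), while Lpl (lipoprotein lipase) works in the other direction and frees fatty acids from lipoproteins for uptake. In the olfactory epithelium debris of dead neurons is taken up by macrophages, and also by sustentacular cells, the supporting cells of the epithelium, and by ensheathing glia along the nerve.

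The promoters shown are those of the 4 genes with the largest change after OBX, taken over both liposomes and among members with an entry in the promoter table. Each is the RefSeq sequence from 250 bases before to 50 bases after a transcription start in GRCm38.p6, written 5′ to 3′ on the strand of the gene. All 4 genes lie on the minus strand. Capitals mark matches to the motifs named after the sequences. For Apoe, which has 3 entries, the one farthest upstream is given.
Abca1, chr4:53159846-53160145: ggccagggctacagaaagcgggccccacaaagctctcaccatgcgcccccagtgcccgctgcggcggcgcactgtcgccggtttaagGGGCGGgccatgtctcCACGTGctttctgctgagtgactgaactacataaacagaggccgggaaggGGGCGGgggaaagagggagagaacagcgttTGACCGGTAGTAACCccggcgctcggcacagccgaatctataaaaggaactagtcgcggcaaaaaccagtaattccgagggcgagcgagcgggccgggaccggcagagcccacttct
Stab1, chr14:31168592-31168891: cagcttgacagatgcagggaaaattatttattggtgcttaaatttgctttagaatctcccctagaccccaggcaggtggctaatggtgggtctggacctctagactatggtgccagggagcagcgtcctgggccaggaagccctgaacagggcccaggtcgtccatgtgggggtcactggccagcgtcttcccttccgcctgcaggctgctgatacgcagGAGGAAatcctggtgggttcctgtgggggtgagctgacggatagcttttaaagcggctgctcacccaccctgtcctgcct
Axl, chr7:25788684-25788983: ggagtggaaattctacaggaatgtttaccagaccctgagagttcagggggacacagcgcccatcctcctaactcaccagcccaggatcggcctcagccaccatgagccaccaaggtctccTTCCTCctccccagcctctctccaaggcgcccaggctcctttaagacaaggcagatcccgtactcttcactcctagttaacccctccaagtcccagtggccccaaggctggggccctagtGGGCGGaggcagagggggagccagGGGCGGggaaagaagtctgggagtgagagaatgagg
Apoe, chr7:19699139-19699438: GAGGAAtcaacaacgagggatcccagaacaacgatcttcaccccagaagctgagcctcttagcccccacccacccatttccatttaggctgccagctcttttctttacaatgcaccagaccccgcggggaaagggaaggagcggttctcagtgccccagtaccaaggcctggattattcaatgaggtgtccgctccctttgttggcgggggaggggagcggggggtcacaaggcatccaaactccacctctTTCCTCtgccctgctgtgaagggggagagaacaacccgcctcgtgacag

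Promoters were found for 8 of the 10 genes, in 10 entries. Neither Abcg1 nor Lpl has one. On both strands they were searched for the direct repeat that the cholesterol sensors LXR and RXR bind together (a pair of GGTNA half-sites in the same direction with 5 bases between them), for TGANTCA (AP-1), CACGTG (E-box), GAGGAA (the core bound by the myeloid factor PU.1) and GGGCGG (GC box). No match overlaps another in the sequences shown. Abca1 alone among the 8 genes held the direct repeat, as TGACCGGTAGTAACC between 67 and 53 bases before its start, which reads GGTTACTACCGGTCA on the other strand. Of all 32851 promoters of the same length 0.718% hold this repeat. The PU.1 core was found in 4 of the 8 genes, in the promoters of Axl, Stab1, Mfge8 and Apoe, against 28.3% of all promoters. A GC box was found in 6 of the 8, all but Stab1 and Apoe, against 35.7%. The shares count promoter entries and not genes, and by entry the PU.1 core was found in 5 of 10 and the GC box in 6 of 10. The E-box was found in Abca1, against 7.15% of all promoters, and AP-1 in none of the 8, against 7.81%. These matches describe letters in a window and were not tested for binding.

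Signals are probe set intensities on a linear scale, which the authors had scaled: on every array the mean, with 2% trimmed at both ends, lay between 499.1 and 499.9. Differences between groups are given as log2(signal + 16), on which 1 unit is a doubling for a bright gene and dim genes change by less than their true fold. The model was fitted with limma over all 13628 genes, errors of a difference are its standard errors, and a gene was called at an adjusted p under 0.05 (Benjamini-Hochberg over all genes, two-sided). The number of arrays limits the precision: 3 against 3 values cannot go below p = 0.1 in an exact permutation test. The labelled tissue was borne out by its defining marker, the olfactory marker protein gene Omp, whose signal lay between 14449 and 18213 on the 6 sham arrays. Omp read 6768.5, 7543 and 11517 after OBX with Lip-O, a fall by 1.01 on the log2 scale (limma, adjusted p = 0.00399), and 11679, 11606 and 13706 after OBX with Lip-C. Of the mature neuron list 5 of 5 measured genes were called lower after OBX in Lip-O mice and 3 of 5 in Lip-C mice, against 8.89% and 8.86% of all genes. In Lip-C mice all 5 differences were negative, with a median of -0.57.

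After OBX most genes of this set rose, with either liposome. In Lip-O mice 6 of the 10 rose and none fell, at a time when 10.7% of all genes tested rose and 8.89% fell: Abca1, Stab1, Axl, Apoe, Pros1 and Abcg1. The median change of the 10 was 0.50 on the log2 scale against 0.05 over all genes. For 9 of the 10, all but Lpl, the 3 OBX arrays lay above the 3 sham arrays, which holds for 21.6% of all genes. In Lip-C mice 7 of the 10 rose and none fell, against 10.3% and 8.86% of all genes. They were the same 6 and Mfge8. The median was 0.43 against 0.04, and for these 7 the OBX and sham arrays did not overlap, as for 23.0% of all genes. Each OBX comparison used its own sham and OBX arrays, with a spread estimated over all 12.

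**Figure D1:**
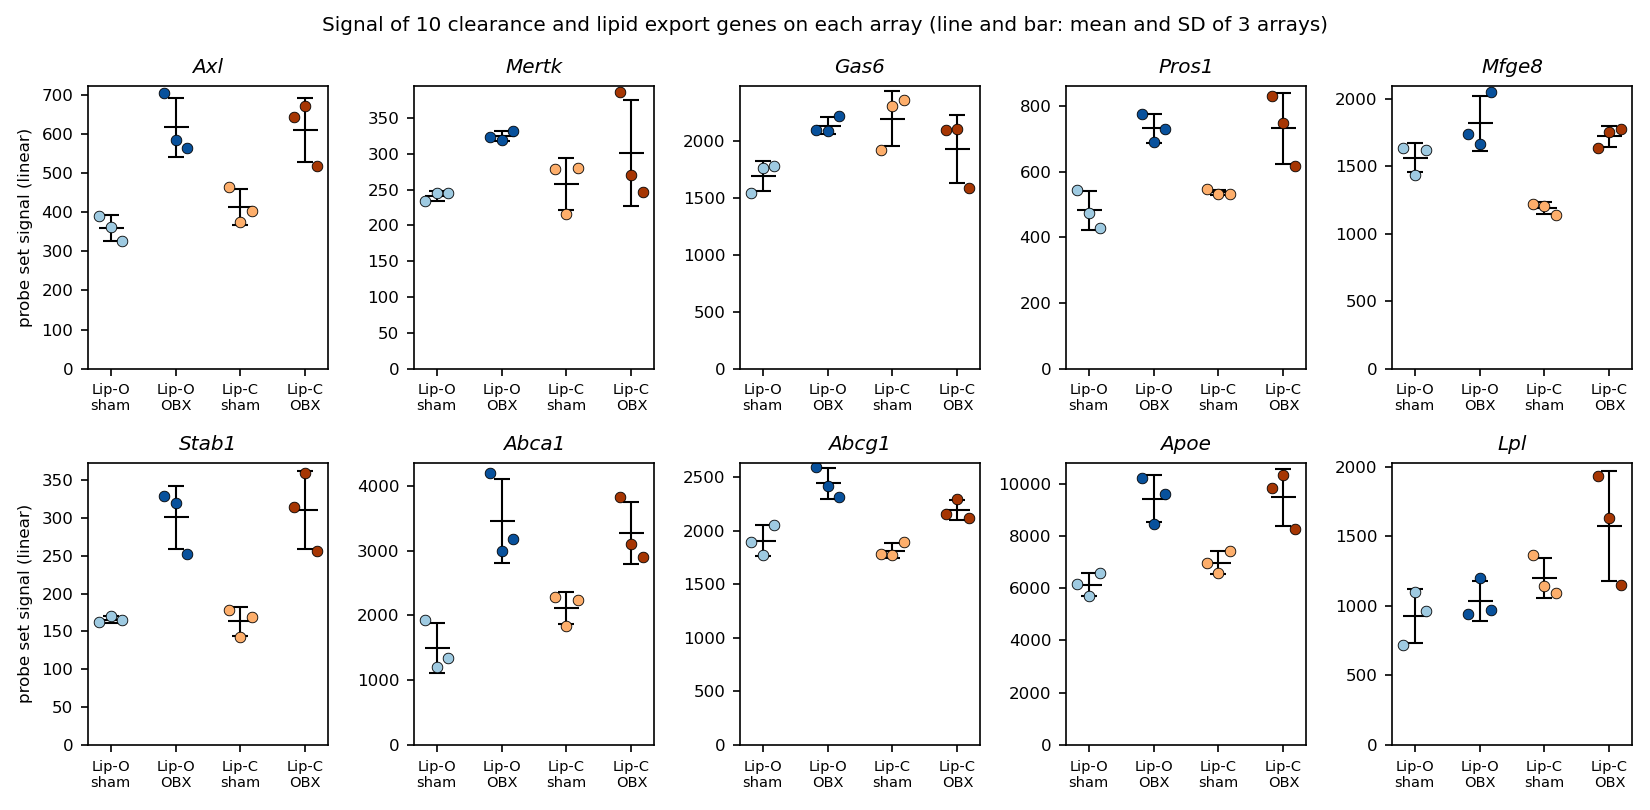
Signal of each gene's representing probe set (linear scale, from 0) on the 12 arrays, by group; points are arrays, horizontal lines means and bars 1 SD of 3 arrays. For Stab1, Axl, Pros1, Apoe, Abca1 and Abcg1 the 6 OBX arrays lie above the 6 sham arrays, while Gas6, Mertk, Mfge8 and Lpl overlap between the operations.

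Of the receptors, Axl is the kinase that phagocytes raise under inflammation. Its signal on replicates 1, 2 and 3 was 391, 364 and 326 in Lip-O sham mice, 705, 587 and 565 in Lip-O OBX mice, 465.5, 374.5 and 405 in Lip-C sham mice and 644.5, 673 and 518 in Lip-C OBX mice. Every OBX array stood above every sham array, and within an operation the arrays of the liposomes overlapped. OBX raised Axl by 0.75 ± 0.13 on the log2 scale in Lip-O mice, a fold of 1.68 (limma, adjusted p = 0.00426), and by 0.54 ± 0.13 in Lip-C mice (1.45-fold, adjusted p = 0.0192). The call in Lip-C mice was lost without Lip-C OBX replicate 1 or 2 or Lip-C sham replicate 2 or 3, with adjusted p from 0.0593 to 0.0744.

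Stab1 is a scavenger receptor of macrophages and of sinusoidal endothelium. Its signals were 162, 170.1 and 165 in Lip-O sham mice and 329, 320.1 and 253 in Lip-O OBX mice. In Lip-C mice they were 178, 142 and 169.6 after sham and 315, 359.9 and 256.5 after OBX. The lowest OBX array, 253, was well above the highest sham array, 178, and the means of both sham groups, 166 ± 4.0 and 163 ± 18.6 (SD, n = 3), differed by less than their spread. The rise was 0.79 ± 0.13 in Lip-O mice (1.73-fold, limma, adjusted p = 0.00414) and 0.86 ± 0.13 in Lip-C mice (1.81-fold, adjusted p = 0.00523). It was called with both liposomes under each of the 22 alternative settings run, 12 of which leave out 1 array.

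Mertk, the receptor kinase that serves steady-state clearance, moved less. Its signals were 234, 246 and 245 in Lip-O sham mice and 323.5, 319.6 and 332 in Lip-O OBX mice, narrow groups that did not overlap. They were 279, 216 and 279.9 in Lip-C sham mice and 386, 271 and 247 in Lip-C OBX mice, where 1 array lay apart and the groups overlapped. The difference was 0.41 ± 0.15 in Lip-O mice (limma, adjusted p = 0.079) and 0.20 ± 0.15 in Lip-C mice (adjusted p = 0.371), neither past the threshold. The Lip-O difference passed when Lip-C OBX replicate 1, the array at 386, was left out of the shared spread (adjusted p = 0.0228) and when the Lip-O arrays were fitted alone (0.0251), and ran up to 0.166 over the other settings. Over both liposomes the difference of 0.30 ± 0.10 stood at an adjusted p of 0.0487, which 16 of 21 settings moved past 0.05, to between 0.0505 and 0.107.

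Among the bridging proteins, Pros1 followed the receptors. Its signals were 546, 474 and 428 in Lip-O sham mice, 777.5, 689 and 730.4 in Lip-O OBX mice, 547, 534 and 531 in Lip-C sham mice and 832, 749 and 617 in Lip-C OBX mice. The OBX groups had the same mean, 732.4, with an SD of 44.1 with Lip-O and 108 with Lip-C, and both lay above all sham arrays. Pros1 rose by 0.59 ± 0.12 in Lip-O mice (1.51-fold, limma, adjusted p = 0.00744) and by 0.43 ± 0.12 in Lip-C mice (1.34-fold, adjusted p = 0.031). The second of these calls was lost without any 1 of 5 of the 6 Lip-C arrays (all but OBX replicate 3), with adjusted p from 0.0599 to 0.116.

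Gas6, the ligand that activates Axl as well as Mertk, showed another pattern. Its signals were lowest in Lip-O sham mice, at 1542.5, 1764 and 1779, and 2096, 2084 and 2221 in Lip-O OBX mice, without overlap. In Lip-C mice they were 1919.8, 2311 and 2361 after sham and 2094, 2109 and 1588 after OBX. The Lip-C sham arrays also lay above the Lip-O sham arrays without overlap, while both OBX groups overlapped each other. OBX minus sham was 0.33 ± 0.12 in Lip-O mice (limma, adjusted p = 0.084) and -0.19 ± 0.12 in Lip-C mice (adjusted p = 0.293), so the estimates had opposite signs and neither was called. The difference between them, the interaction, was -0.52 ± 0.17 with an unadjusted p of 0.0127 and an adjusted p of 0.169. The first of these differences was called without Lip-C OBX replicate 3, the lowest Lip-C OBX array at 1588 (adjusted p = 0.0369).

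Mfge8 bridges dying cells to integrins. Its signals were 1639.5, 1439 and 1621 in Lip-O sham mice and 1739, 1667 and 2052 in Lip-O OBX mice. They were 1222.5, 1209 and 1139 in Lip-C sham mice, the lowest of the 4 groups and below every other array, and 1635, 1759 and 1777 in Lip-C OBX mice. Both OBX groups and the Lip-O sham group lay close together, with means of 1819, 1724 and 1566. Mfge8 rose by 0.53 ± 0.09 in Lip-C mice (1.44-fold, limma, adjusted p = 0.0069), and also under all 22 alternatives run. In Lip-O mice the difference was 0.21 ± 0.09 (adjusted p = 0.134), with arrays that did not overlap. The interaction of 0.32 ± 0.13 had an unadjusted p of 0.0339 and an adjusted p of 0.243, so that the effect of OBX was not shown to differ between the liposomes.

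The exporters and their acceptor rose together. Abca1 moves cholesterol and phospholipid to apolipoproteins poor in lipid, and it changed most of the 10 in Lip-O mice. Its signals were 1934, 1209 and 1348 in Lip-O sham mice and 4204, 2999.9 and 3173 in Lip-O OBX mice. They were 2281, 1838 and 2238 in Lip-C sham mice and 3819.9, 3096 and 2908 in Lip-C OBX mice. All 6 OBX arrays lay above all 6 sham arrays, and the Lip-O groups had 1 array each (replicate 1) well above the other two. Abca1 rose by 1.21 ± 0.19 in Lip-O mice (2.32-fold, 95% interval of the log2 change 0.79 to 1.63, limma, adjusted p = 0.00307). In Lip-C mice it rose by 0.62 ± 0.19 (1.54-fold, interval 0.20 to 1.04, adjusted p = 0.0446), a call that was lost without any 1 of 5 of the 6 Lip-C arrays (all but OBX replicate 3, adjusted p 0.0667 to 0.156) and without Lip-O OBX replicate 2 or 3 or Lip-O sham replicate 3 (0.0501 to 0.056). The interaction was -0.59 ± 0.27 (interval -1.19 to 0.00, adjusted p = 0.286).

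Abca1 has 3 probe sets, and all measured the rise in Lip-O mice alike: 1.21 ± 0.19 for the brightest, 1.18 ± 0.21 for the second and 1.27 ± 0.21 for the third. In Lip-C mice they read 0.62 ± 0.19, 0.94 ± 0.21 and 1.14 ± 0.21. When p-values were adjusted over all probe sets, the brightest missed the threshold there (0.0514, limma), while the others passed (0.0173 and 0.00932). The brightest also read 0.52 higher in Lip-C than in Lip-O sham mice, the others 0.29 and 0.12, and none of these was called. The signals of the third probe set were 129, 99.9 and 117 in Lip-C sham mice and 297, 286 and 235 in Lip-C OBX mice, without overlap.

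**Figure D2:**
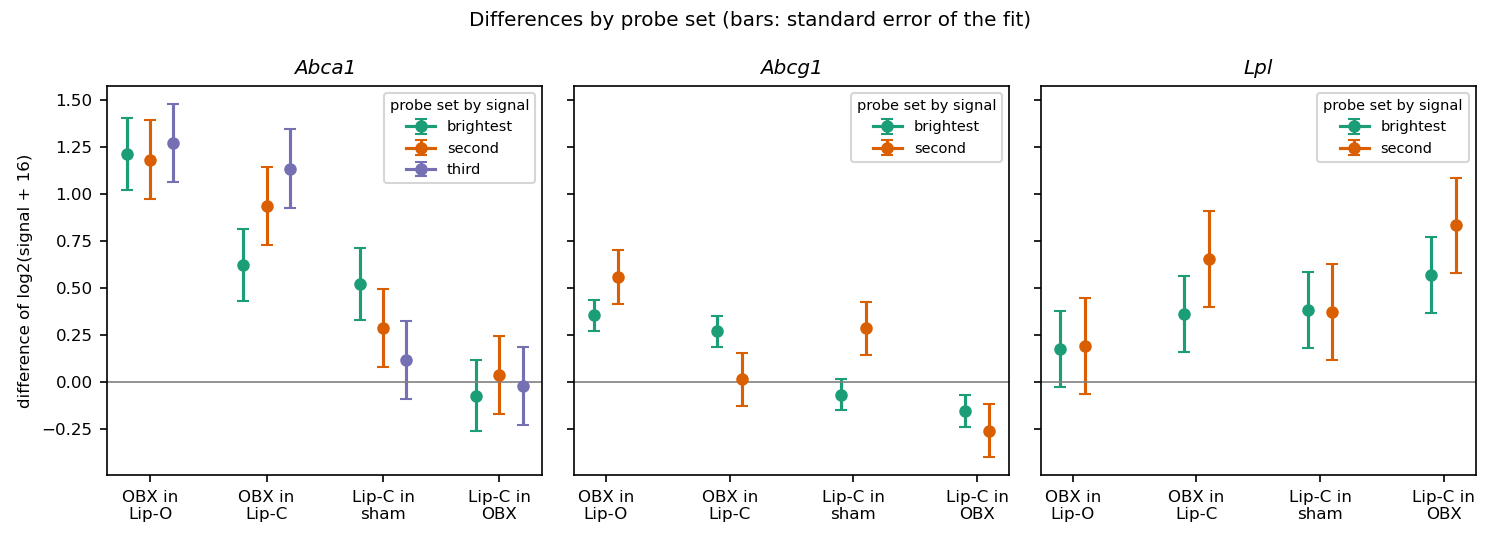
Difference of log2(signal + 16) in 4 comparisons for each probe set of the 3 genes with more than 1 above the filter; points are estimates, bars standard errors of the fit. The 3 Abca1 probe sets lie within 1.18 to 1.27 for OBX in Lip-O mice and spread from 0.62 to 1.14 in Lip-C mice, and the Abcg1 probe sets part for OBX in Lip-C mice (0.27 and 0.01).

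Abcg1 loads cholesterol onto mature HDL, the particles that Abca1 begins. Its signals were 1890.5, 1768 and 2054 in Lip-O sham mice, 2592, 2414 and 2311 in Lip-O OBX mice, 1777, 1769 and 1895 in Lip-C sham mice and 2158, 2291.5 and 2115.5 in Lip-C OBX mice. The operations did not overlap, and after OBX every Lip-C array lay below every Lip-O array. It rose by 0.36 ± 0.08 in Lip-O mice (1.28-fold, limma, adjusted p = 0.0124) and by 0.27 ± 0.08 in Lip-C mice (1.21-fold, adjusted p = 0.0396). Its second probe set rose by 0.56 ± 0.14 in Lip-O mice (limma over all probe sets, adjusted p = 0.0228). In Lip-C mice it read 0.01 ± 0.14 (adjusted p = 0.96), with sham signals of 456.5, 456 and 507 and OBX signals of 412, 566.5 and 466 that overlapped. The Lip-C call was lost without any 1 of 5 of the 6 Lip-C arrays (all but OBX replicate 3), Lip-O OBX replicate 2 or Lip-O sham replicate 1 (adjusted p 0.0507 to 0.128), and when both probe sets were averaged (0.353). The Lip-O call was lost without Lip-O OBX replicate 1 (0.05).

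Apoe, the acceptor, is also a product of liver and of glia. Its signals were 6139.7, 5688 and 6567 in Lip-O sham mice, 10216, 8436 and 9611.5 in Lip-O OBX mice, 6949, 6567 and 7423.5 in Lip-C sham mice and 9845, 10330.2 and 8255 in Lip-C OBX mice. Means after OBX were 9421 ± 905 and 9477 ± 1085 (SD, n = 3), closer to each other than their spread, and all OBX arrays exceeded all sham arrays. Apoe rose by 0.62 ± 0.11 in Lip-O mice (1.53-fold, limma, adjusted p = 0.00457) and by 0.44 ± 0.11 in Lip-C mice (1.35-fold, adjusted p = 0.0219). The Lip-C call was lost without Lip-C OBX replicate 1 or 2 or Lip-C sham replicate 2 (adjusted p 0.076 to 0.0823).

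Lpl, the lipase, was not called after OBX with either liposome, as Gas6 and Mertk were not. Its signals were 717, 1097 and 963 in Lip-O sham mice and 943, 1200.1 and 967 in Lip-O OBX mice. They were 1365, 1140.1 and 1092 in Lip-C sham mice and 1936, 1631 and 1153 in Lip-C OBX mice, the group with the widest spread of the 4. All groups overlapped their neighbours, and the order of means ran from Lip-O sham through Lip-O OBX and Lip-C sham to Lip-C OBX. OBX minus sham was 0.17 ± 0.20 in Lip-O mice (limma, adjusted p = 0.589) and 0.36 ± 0.20 in Lip-C mice (adjusted p = 0.228). Lip-C minus Lip-O was larger than either after OBX, at 0.57 ± 0.20 (95% interval 0.12 to 1.02, adjusted p = 0.277), and 0.83 ± 0.25 for the second probe set, and neither was called. Adipoq, the adipocyte gene that stands for fat in the dissection, had signals of 19.1, 90.5 and 68.2 in Lip-O sham mice and 87.8, 96.1 and 136 in Lip-O OBX mice, against 226, 126 and 125.5 in Lip-C sham and 146, 207 and 129.5 in Lip-C OBX mice. The 2 adipocyte markers of 7 that passed the filter summed to 211 to 261, 296 to 352, 299 to 409.5 and 310.2 to 419 in the same order, none of them was called in either Lip-C comparison, and their part in the Lpl values was not tested.

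Pooling the liposomes, 8 of the 10 genes rose after OBX, all but Gas6 and Lpl, against 19.2% of all genes. In 6 of them the 6 OBX arrays lay above the 6 sham arrays, against 5.53% of all genes: Axl, Pros1, Stab1, Abca1, Abcg1 and Apoe. By size the order was Abca1 (0.92 ± 0.13), Stab1 (0.82 ± 0.10), Axl (0.65 ± 0.09), Apoe (0.53 ± 0.08), Pros1 (0.51 ± 0.08), Mfge8 (0.37 ± 0.07), Abcg1 (0.31 ± 0.06), Mertk (0.30 ± 0.10), Lpl (0.27 ± 0.14) and Gas6 (0.07 ± 0.09). Differences between neighbours in this order were not tested. The count in Lip-C mice rested on single arrays: it fell from 7 to 2 without Lip-C OBX replicate 1 or 2 or Lip-C sham replicate 2, to 3 without Lip-C sham replicate 3 and to 4 without Lip-C sham replicate 1. Calls over all genes in Lip-C mice moved with it, from 2615 to between 838 and 1935.

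The clodronate liposomes themselves moved no member past the threshold. In sham mice 0 of the 10 were called where 2.10% of all genes were (limma), and 3 of the 10 had an unadjusted p under 0.05, against 21.9% of all genes: Mfge8, Gas6 and Abca1. Mfge8 had the smallest p, with a difference of -0.39 ± 0.09 (95% interval -0.59 to -0.19, adjusted p = 0.0558) and Lip-C arrays all below the Lip-O arrays, as for 13.5% of all genes. It was called at a pseudocount of 64 (0.0496), with a variance trend (0.0314) and without Lip-O OBX replicate 3 (0.0431). Gas6 was the gene whose Lip-C sham arrays lay above all Lip-O sham arrays, as for 16.2% of all genes, at 0.37 ± 0.12 (adjusted p = 0.125). Abca1 differed by 0.52 ± 0.19 (adjusted p = 0.151). The receptors differed by 0.19 ± 0.13 for Axl, 0.08 ± 0.15 for Mertk and -0.03 ± 0.13 for Stab1, with 95% intervals of -0.09 to 0.48, -0.25 to 0.41 and -0.32 to 0.27.

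After OBX 0 of the 10 were called between the liposomes, where 0.345% of all genes were (limma). Estimates for 9 of the 10 lay between -0.15 and 0.04, with a median of -0.05 over the 10, and Lpl stood apart at 0.57, the 1 member with an unadjusted p under 0.05 (12.7% of all genes). Over both operations 0 of the 10 were called, against 1.59% of all genes. The intervals still allow differences of some size: for Axl -0.30 to 0.27, for Stab1 -0.26 to 0.34, for Abca1 -0.49 to 0.35 and for Apoe -0.23 to 0.24. Abcg1 had the arrays of the 2 groups apart, Lip-C below Lip-O, as for 7.81% of all genes, at -0.15 ± 0.08 (adjusted p = 0.452). The interaction called 0 of the 10 and 0 of 13628 genes (limma), with 17.6% of genes at an unadjusted p under 0.05, among them Gas6 and Mfge8. Without Lip-O OBX replicate 2 it called 155 genes and without Lip-C OBX replicate 3 it called 3, none of them among the 10.

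**Figure D3:**
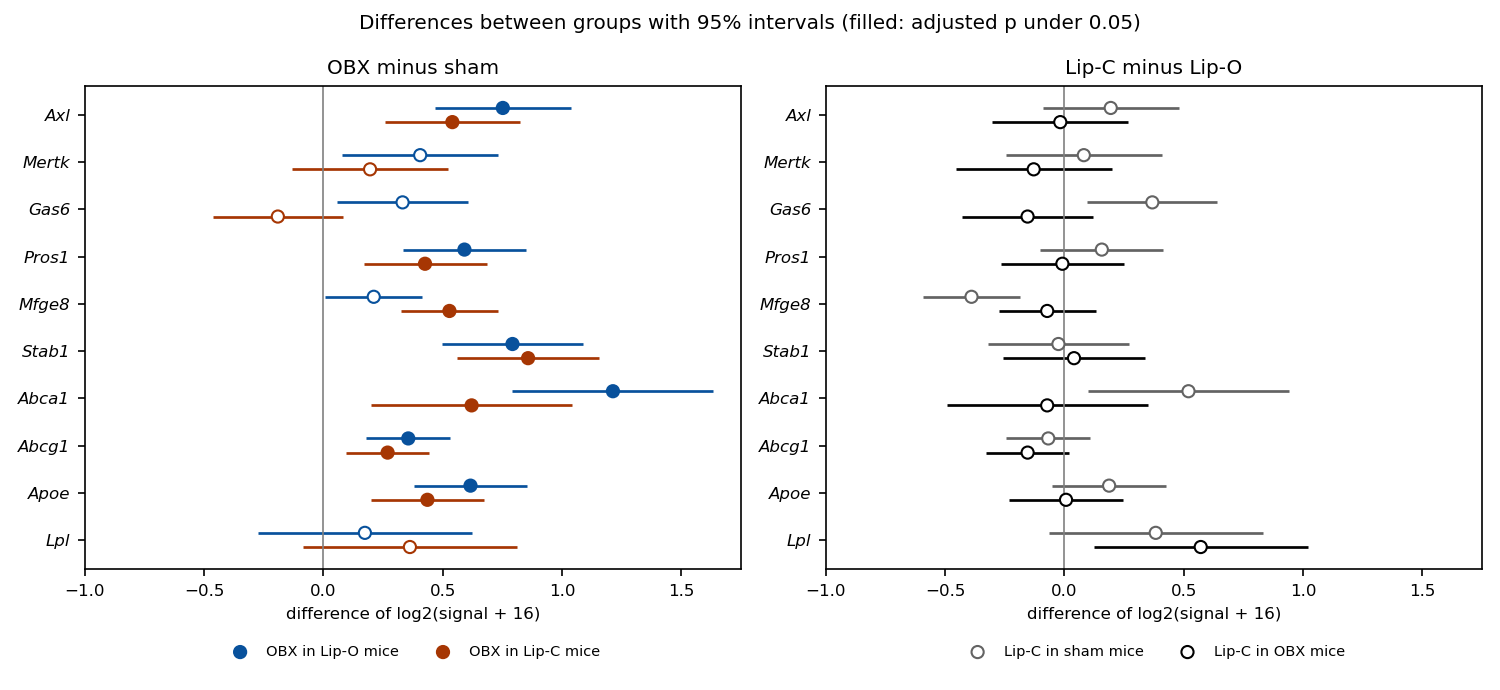
Differences of log2(signal + 16) for the 10 genes, OBX minus sham at left and Lip-C minus Lip-O at right; points are estimates, lines 95% intervals, filled points an adjusted p under 0.05. At left 6 points are filled for Lip-O and 7 for Lip-C, all above 0, and at right none is filled.

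Markers of several cell types moved with the operation. Of 20 macrophage markers 7 rose and none fell after OBX in Lip-O mice, and 10 rose and none fell in Lip-C mice, against 10.7% and 10.3% of all genes that rose. Msr1 passed the filter through OBX arrays alone, with signals of 33.1 to 63.1 after sham and 66.9 to 116.4 after OBX. Fcgr1 would not have passed without the OBX arrays either, so any call of these genes after OBX was tied to the filter. Cd68, a lysosomal protein of macrophages, had signals of 566, 387 and 324 in Lip-O sham, 1312, 989 and 655.5 in Lip-O OBX, 419, 326 and 307 in Lip-C sham and 1018.5, 1102 and 851 in Lip-C OBX mice. It rose by 1.16 ± 0.25 (limma, adjusted p = 0.0116) and 1.46 ± 0.25 (adjusted p = 0.0069), while Adgre1, which encodes F4/80, differed by 0.26 ± 0.19 and 0.49 ± 0.19 and was not called. The summed signal of the 20 markers was 13472 to 25300.3 in Lip-O sham, 20391 to 34761 in Lip-O OBX, 12289 to 18867 in Lip-C sham and 19948 to 27031 in Lip-C OBX mice, and none was at 0. Lip-C in sham mice lowered 2 of the 20, Aif1 and Csf1r, against 2.10% of all genes called in either direction. Of the 20 differences 15 were negative, and 5 genes had Lip-C arrays below all Lip-O arrays (13.5% of all genes). The signals of Csf1r, the receptor for the macrophage growth factor, went from 2231, 2589 and 2328.5 to 1474.5, 1209.8 and 1309.8 (-0.83 ± 0.18, adjusted p = 0.0426), and after OBX none of the 20 differed past the threshold between the liposomes. In tissue RNA fewer cells of a type and less RNA per cell cannot be told apart, and the part of macrophages in the rise of the 10 genes was not tested. Ensheathing and Schwann cell markers rose in 2 of 4 measured genes in Lip-O mice and 1 of 4 in Lip-C mice, with sums of 5712 to 7901 in Lip-O sham, 8699.8 to 9575 in Lip-O OBX, 6240.3 to 8181 in Lip-C sham and 7803 to 8831.5 in Lip-C OBX mice. Counted for each liposome apart, 1 of 3 measured sustentacular, 2 of 3 Bowman gland and 2 of 4 mural cell genes rose with Lip-O, and as many with Lip-C. Of 7 endothelial genes 1 rose in Lip-O mice, near the 10.7% of all genes, and none in Lip-C mice (10.3% of all genes). Sustentacular markers summed to 27504 to 29841.5 in Lip-O sham, 32585 to 34089 in Lip-O OBX, 24289 to 25505 in Lip-C sham and 29651 to 31496 in Lip-C OBX mice.

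Among fibroblast markers 0 of 6 were called after OBX in Lip-O mice, with a median of -0.24 on the log2 scale. In Lip-C mice 4 of 6 rose, against 10.3% of all genes, with a median of 0.97. They summed to 19393 to 26039 in Lip-C sham mice, below 30447 to 55866 in Lip-O sham, 29339 to 51579 in Lip-O OBX and 32887 to 54087 in Lip-C OBX mice. In sham mice 4 of the 6 had Lip-C arrays below all Lip-O arrays (13.5% of all genes), and none was called. Markers of osteoclasts, the bone-resorbing relatives of macrophages, were called lower with Lip-C in sham mice in 3 of 4 measured genes, against 2.10% of all genes called in either direction. The part of these cells in the values of the 10 genes, Mfge8 in Lip-C sham mice included, was not tested.

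Apoe and Pros1 are also made by liver, and Alb, the albumin gene, read 527, 1184 and 151 after OBX with Lip-O, against 16.9 to 52.2 in Lip-O sham, 6.0 to 33.3 in Lip-C sham and 5.6 to 41.3 in Lip-C OBX mice. The 4 liver markers of 9 above the filter summed to 429 to 1924 in Lip-O OBX mice and to 104 to 250.1 on the other 9 arrays. Of these markers 3 rose after OBX in Lip-O mice, against 10.7% of all genes. Alb, Ttr and Ahsg would not have passed the filter without the Lip-O OBX arrays, so this sum and this count were partly fixed by the filter. In Lip-C mice, where Apoe and Pros1 also rose, the Alb signals after OBX overlapped those after sham. The part of liver transcripts in the Lip-O values was not tested.

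The other genes of the pathway came from 5 lists. Of 17 measured receptors and bridging proteins outside the 10 (4 more lay below the filter), 7 rose and none fell after OBX in Lip-O mice (10.7% and 8.89% of all genes), and 8 rose and none fell in Lip-C mice (10.3% and 8.86%), with medians of 0.39 and 0.47 against 0.05 and 0.04 over all genes. The chains of C1q, an opsonin that coats dying cells and a product of macrophages, led both. C1qc rose by 1.15 ± 0.23 in Lip-O mice (limma, adjusted p = 0.00746) and 1.09 ± 0.23 in Lip-C mice (adjusted p = 0.0122), C1qa by 1.08 and 1.07 and C1qb by 0.95 and 1.07. These 3 genes are on the macrophage list too. C1qc was called in all settings with both liposomes, and C1qa and C1qb lost the call on leaving out any 1 of 3 arrays in Lip-O mice and any 1 of 4 in Lip-C mice, with adjusted p up to 0.0901 over the settings. Thbs1, a bridge to CD36, rose by 0.84 ± 0.13 in Lip-O mice (adjusted p = 0.00273), and Megf10, a glial receptor for C1q, by 0.89 ± 0.15 in Lip-C mice (adjusted p = 0.00552). Megf10 also rose in Lip-O mice, by 0.52 to 0.77 over the 22 alternative settings, and was called in all of them. Thbs1 was not called in Lip-C mice, where its signals were 1231.1 to 1377.4 after sham and 1542.5 to 1882.5 after OBX. Over both operations Scarb1, the receptor for HDL and also for phosphatidylserine, stood lower with Lip-C (-0.47 ± 0.10, adjusted p = 0.0433), a call that 14 of 21 settings ended, with adjusted p up to 0.101. Tyro3, the relative of Axl and Mertk, is named for that kinship and not by the rule: its signals were 1916.5, 2071 and 1529.8 in Lip-O sham and 3215, 2300.2 and 2273 in Lip-O OBX mice (0.49 ± 0.17, adjusted p = 0.0721), and -0.08 separated the Lip-C groups (adjusted p = 0.782).

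Inside the phagocyte, receptors signal through ELMO and DOCK proteins to Rac1, which shapes the membrane around the target. All 14 engulfment genes were measured: 2 rose and 1 fell in Lip-O mice, 3 rose and 1 fell in Lip-C mice, with medians of 0.07 and 0.09 against 0.05 and 0.04 over all genes. The shares that rose over all genes were 10.7% and 10.3%, and those that fell 8.89% and 8.86%, and the counts of this list lie near them. The lower gene was Elmo2 with both liposomes, by -0.64 ± 0.08 and -0.68 ± 0.08 (limma, adjusted p = 0.00143 and 0.00445). Averaged over its probe sets the differences were -0.35 and -0.25, and the second was not called (adjusted p = 0.0741). Dock1 rose by 0.57 and 0.53, Rac1 by 0.36 in Lip-O mice, and the adaptor Gulp1 by 0.65 and Elmo3 by 0.33 in Lip-C mice. Dock1 lost its call on leaving out any 1 of 4 arrays in Lip-O mice and any 1 of 5 in Lip-C mice (adjusted p up to 0.557 and 0.115 over the settings, the first at 0.13 when its probe sets were averaged), and Elmo3 on leaving out any 1 of 6 (up to 0.117). Of 7 measured genes for find-me signals, lipid exposure and receptor shedding, 1 rose with Lip-O and 2 with Lip-C, so that the first count is near the 10.7% of all genes. They were the sheddases that cut Axl and Mertk from the surface: Adam10 by 0.38 (adjusted p = 0.00766) and 0.27 (0.0321), and Adam17 by 0.52 in Lip-C mice (0.0331). The Lip-C calls of both were lost on leaving out any 1 of 4 arrays, with adjusted p up to 0.106 for Adam10 and 0.121 for Adam17.

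In the list for cholesterol efflux 23 of 25 genes were measured. Of these 9 rose and none fell after OBX in Lip-O mice, against 10.7% and 8.89% of all genes. Pparg, a lipid-sensing nuclear receptor, rose from 185.5, 141 and 135 to 319, 313 and 280.4 (0.92 ± 0.17, limma, adjusted p = 0.00623). In Lip-C mice it read 331, 228 and 263 after sham and 329, 279 and 212 after OBX (-0.01 ± 0.17, adjusted p = 0.98), and Apoc1 differed by -0.01 ± 0.14 there (adjusted p = 0.978), while the interaction called neither. Apoc1, an apolipoprotein from the same gene cluster as Apoe, rose by 0.81 ± 0.14 in Lip-O mice (adjusted p = 0.00517), Clu (clusterin) by 0.61 (adjusted p = 0.0134) and Mylip, the ligase that removes the LDL receptor and is a target of LXR, by 0.56 (adjusted p = 0.00787). In Lip-C mice 9 rose and 2 fell, against 10.3% and 8.86% of all genes, so that the count that fell lies near the share of all genes. Clu and Mylip were among these 9 too, by 0.43 to 0.59 and 0.41 to 0.50 over the 22 alternative settings. They were called in 17 and 18 of these settings. Trem2, a lipid receptor of macrophages, rose by 1.19 ± 0.37 (adjusted p = 0.0474), Plin2, which coats lipid droplets, by 0.86 ± 0.17 (0.0107), Lcat by 0.76 (0.0418) and the transfer protein Pltp by 0.72 (0.00822). In Lip-O mice none of these was called. Trem2 signals there were 46.5 to 117.3 after sham and 143.2 to 244.5 after OBX. Those of Plin2 were 1208.5 to 1277.7 and 1654.7 to 1871.6, also without overlap, while those of Lcat and Pltp overlapped. Lcat passed the filter through OBX arrays alone, with Lip-C signals of 33.7 to 45.6 after sham and 69.7 to 80.9 after OBX. Its call, 1 of the 9, was therefore tied to the filter. Those that fell, named after their values were seen, were Abca2 (-0.67 ± 0.19) and Nceh1 (-0.28 ± 0.07). Abca2 lost its call on leaving out any 1 of 5 arrays (adjusted p up to 0.117 over the settings) and Nceh1 on leaving out any 1 of 4. Averaged over its probe sets Nceh1 differed by -0.03 (adjusted p = 0.875). Clu lost its Lip-O call on leaving out either of 2 arrays (adjusted p up to 0.0709). The calls of Trem2 and Lcat in Lip-C mice were each lost for 7 of the arrays left out in turn, with adjusted p up to 0.147 and 0.12, while Plin2 and Pltp in Lip-C mice, and Pparg and Apoc1 in Lip-O mice, were called in all 22 alternative settings. Nr1h3, which encodes LXRα and is named for its role, differed by -0.00 ± 0.13 and 0.19 ± 0.13 and was not called.

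Around Lpl, 12 of 15 partners and genes of fatty acid uptake were measured. In Lip-O mice 2 rose and none fell: Fabp5, a fatty acid carrier, by 0.60 ± 0.18 (limma, adjusted p = 0.0368), and Sel1l, which helps Lpl leave the endoplasmic reticulum, by 0.34 ± 0.08 (adjusted p = 0.0165). In Lip-C mice Fabp5 rose by 0.84 ± 0.18 (adjusted p = 0.0124) and Lipg, the endothelial lipase, fell (-0.81 ± 0.19, adjusted p = 0.0171). Lipg was dim, at 94.0 to 139.8 in Lip-C sham mice and 51.2 to 57.6 in Lip-C OBX mice. The latter lay below the filter level of 65.3 to 79.3, and Lipg would not have passed without the sham arrays. Sel1l was also higher in Lip-C than in Lip-O sham mice, by 0.47 ± 0.08 (adjusted p = 0.0274). The calls of Fabp5 and Sel1l in Lip-O mice and of Lipg in Lip-C mice were lost on leaving out 5, 2 and 2 of the 12 arrays in turn, and that of Sel1l in sham mice on leaving out 5. Averaged over its probe sets Sel1l differed by 0.11 in Lip-O mice (adjusted p = 0.335) and by 0.29 between the sham groups, neither called. These counts, 2 of 12 that rose in Lip-O mice and 1 of 12 in each direction in Lip-C mice, lie near the shares of all genes given above.

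**Figure D4:**
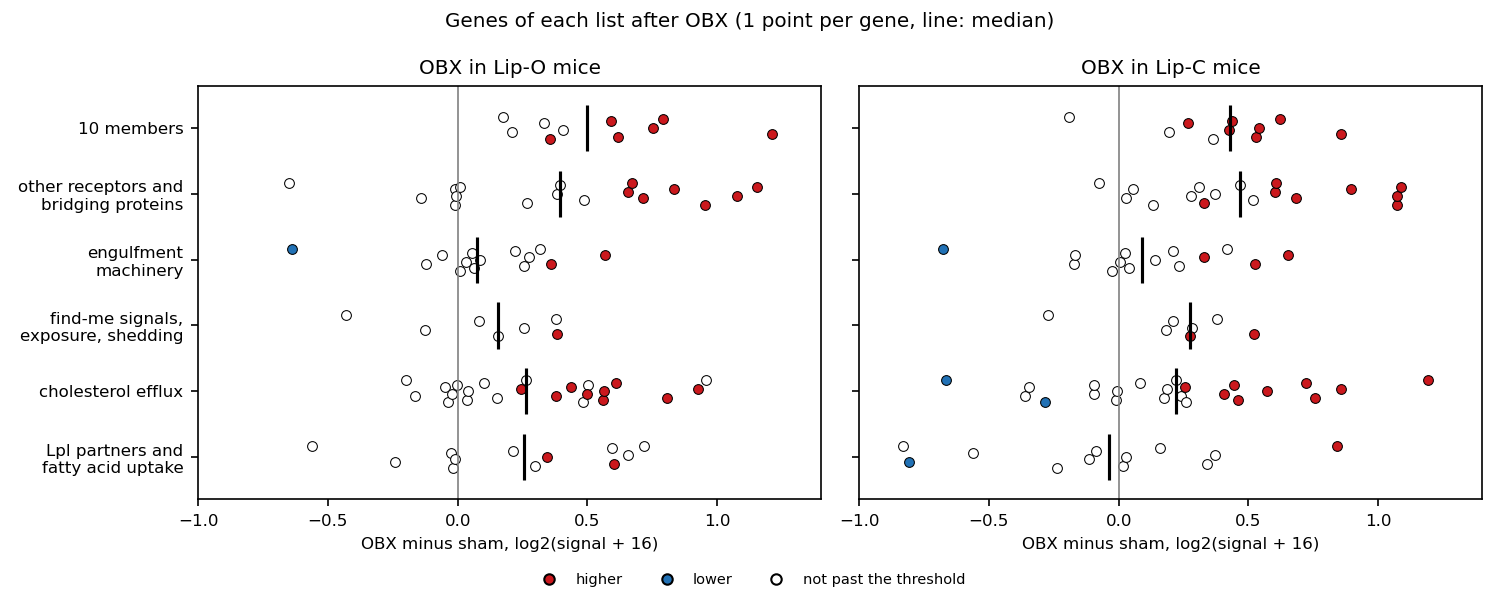
OBX minus sham as a difference of log2(signal + 16), 1 point per measured gene, for the 10 genes and the 5 lists around them; vertical bars are list medians, red and blue points are higher and lower at an adjusted p under 0.05. The 10 genes have medians of 0.50 with Lip-O and 0.43 with Lip-C, close to the other receptors and bridging proteins (0.39 and 0.47), and the engulfment genes lie around 0.07 and 0.09.

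Within groups the members did not all vary alike. After the group means were taken out, Axl varied with Stab1 (Pearson's r = 0.78), with Pros1 (0.77) and with Abca1 (0.68) over the 12 arrays, and Abcg1 with Apoe (0.71). Mfge8 ran against Stab1 (-0.53), and 34 of the 45 pairs had an r above 0. These are descriptions over arrays that share their groups, scaling and dissection, with 8 residual degrees of freedom. Lip-C OBX replicate 3 was low for the set: 9 of the 10 genes lay below their group's mean there, by a median of 0.23 over the 10. This was not particular to the set. The array also had the lowest macrophage, fibroblast, osteoclast and neutrophil marker sums of its group. Its mature neuron sum was the highest, 47220 against 37613 and 37047. Its ensheathing, sustentacular and Bowman gland sums lay between those of replicates 1 and 2.

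For the 8 members called in at least 1 comparison, the closest of all genes tested over the 12 arrays were found by Pearson's r of log2 values, which is driven by the group means. Axl was closest to Ctsd, the lysosomal protease cathepsin D (0.986), then to Gnb2 (0.979) and Casp8 (0.975). Pros1 was closest to Arhgef16 (0.969), Axl (0.964) and Ctsd (0.960), so that a pair of the members were neighbours among 13628 genes. Stab1 stood nearest to Kcnj13 (0.980), Selenop (0.977) and Sypl (0.970), and Mertk to Igsf5 (0.936), Ccny (0.924) and Tspan12 (0.922). For the exporters the neighbours were Kcnj15 (0.976), Ccl9 (0.970) and Arhgef5 (0.970) of Abca1, and Cyp1a2 (0.962), Ephx1 (0.954) and S100a16 (0.951) of Abcg1. Cyp1a2 is on the list of sustentacular cell markers and rose after OBX with both liposomes, by 0.55 and 0.47. Apoe stood nearest to Igfbp6 (0.973), D630039A03Rik (0.958) and Gsn (0.958), and Mfge8 to Laptm4b (0.924), Mllt1 (0.923) and Irak1 (0.915).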

How the data were processed

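The deposited table holds probe set intensity values on a linear scale, per the file headers and values, for 45101 probe sets on 12 arrays, 64 of them controls. Labelled cRNA was prepared from total RNA, per the labels' protocols, which name no method for summarising probes. The log2 of signal + 16 was analysed without rescaling. Probe sets above the 40th percentile of an array (65.3 to 79.3) on at least 3 arrays were kept, 28986 in all, and each of 13628 genes was represented by its brightest one. Of the probe sets, 34945 had 1 gene in the platform annotation, 932 had several and 9160 had no gene, and 34741 matched the RefSeq gene table by identifier. The means of the 4 groups were fitted with limma 3.58.1 in R 4.3.3 (8 residual and 2.56 prior degrees of freedom) for 7 comparisons, with Benjamini-Hochberg adjustment within each. The fit was tested on simulated data. Replicates of a group correlated at 0.970 to 0.987. Named beside the 10 genes were, from 5 pathway lists, up to 4 called genes with the largest change per comparison, 6 defining cell markers, and the 3 closest genes by correlation. The 10 genes and all lists were chosen with earlier results of these data known. Promoters came from a RefSeq table of GRCm38.p6. Alternatives were 2 other pseudocounts, no filter, quantile normalization, other probe set rules, other variance estimates, the compared groups alone, the replicate number as a block and each array left out.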

Additional observations from a re-analysis of the deposited data

How the results depend on the processing

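No result changed its sign past the threshold in any setting run. Counting the 10 genes, 1 was called for Lip-C in sham mice at a pseudocount of 64, with a variance trend (Mfge8 in both) and with the replicate block (Abca1), against 0 in the reported fit, and 4 for OBX in Lip-C mice with no filter on low values, against 7. With each array left out in turn the count ran from 5 to 7 for OBX in Lip-O mice, 2 to 7 for OBX in Lip-C mice, 0 to 1 for Lip-C in sham mice, 0 to 0 for Lip-C in OBX mice, 0 to 0 for the interaction, 7 to 9 for OBX over both liposomes and 0 to 0 for Lip-C over both operations. Leaving out an array also leaves fewer samples to estimate the spread. For single genes of the 10, 650 values in the other settings kept direction and side of the threshold, 16 lost and 4 gained a call, and leaving out arrays gave 797, 39 and 4. Quantile normalization moved the median of all genes by less than 0.1 in each comparison. The numbers in the titles were not taken to pair the samples, since the labels tie them to nothing shared and same-numbered arrays of different groups correlated in their deviations over 0.1 in 11 of 18 pairs, not in all. Their correlations ran from -0.03 to 0.33, against -0.33 to 0.18 for different numbers, and 9 of 12 arrays were closest to their own number, a hint of shared variation that comes from the data alone. With the replicate block the calls over all genes went from 2676 to 2971 for OBX in Lip-O mice, from 2615 to 2997 for OBX in Lip-C mice and from 286 to 329 for Lip-C in sham mice. Among the 10 genes the block ended the call of Abcg1 for OBX in Lip-C mice (limma, adjusted p = 0.0518) and made that of Abca1 for Lip-C in sham mice (0.0467). Among the limits of these values are the number of arrays, 3 in a group, and the choice of probe set for Abca1 and Abcg1.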
